A study of Homo sapiens and Mus musculus with 13 samples.

Results

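The MEF2 transcription factors (Mef2a, Mef2b, Mef2c and Mef2d) and the class IIa histone deacetylases that bind them (Hdac4, Hdac5, Hdac7 and Hdac9) were examined in mouse haematopoietic progenitor cells with and without a knock-in of NPM1c, the mutant nucleophosmin of acute myeloid leukaemia that accumulates in the cytoplasm. These 8 genes were found by symbol among the 37991 genes of the files and cover 9 identifiers, because Hdac4 is attached to 2. The family was chosen because Mef2c had no read in any knock-in clone, so the set was chosen by the clone and parental values of Mef2c, which are given as a description with no test. The other genes belong to the set by family. Their tests come from the same comparison, and the number of them that changed is not evidence about the family as a whole.

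RNA was sequenced in bulk from 5 mouse libraries. They comprised 3 single-cell clones, numbered 12, 18 and 4 in the sample titles, that carry an NPM1c knock-in made with CRISPR/Cas9 (written NPM1ca-GFP in the design text), and 2 libraries of the parental line, whose genotype is labelled wild-type. All 5 libraries come from progenitors immortalized by HOXB8 and kept in medium with stem cell factor and estradiol, and no drug was given. No unedited single-cell clone was included, so the knock-in and the outgrowth of a clone from 1 cell cannot be told apart, and separate cultures are not stated for the parental libraries, whose spread may be technical. The human libraries of the series are not used here.

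MEF2 proteins are MADS-box factors that bind A/T-rich DNA sites and recruit either coactivators or repressors. Class IIa histone deacetylases have little deacetylase activity of their own. They sit on MEF2 in the nucleus, bring in corepressor complexes that hold HDAC3, and leave for the cytoplasm when calcium- or diacylglycerol-dependent kinases phosphorylate them and 14-3-3 proteins bind. The pairing was worked out mostly in muscle, heart and neurons. In blood cells MEF2C acts in B lymphoid and monocyte development, and high MEF2C is known from some acute leukaemias.

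The values are normalized reads, meaning the reads of a gene divided by a size factor per library. Whole reads could be recovered from them, and the libraries held 12235174, 9427149 and 7358340 reads in clones 12, 18 and 4 and 9728260 and 99557475 in parental libraries 1 and 2. Parental library 2 was thus 8.14 times as deep as the next deepest library. Npm1, the targeted gene, was at 15141, 14144 and 14305 normalized reads in clones 12, 18 and 4 and at 25695 and 25714 in the parental libraries. The progenitor markers Kit, Cd34, Ptprc, Myb and Runx1 were detected in all 5 libraries, with none below 886 normalized reads. The other markers of that list also had reads in every library, some of them few. Their lowest values were 7872 for Mpo (clone 4), 605.6 for Sfpi1 and 260.3 for Ctsg (both parental library 2), and 13.5 for Elane (clone 12). The column headers inside the clone files carry other clone numbers than the titles (4, 12 and 18 for the clones titled 12, 18 and 4), and the clones are named by title here, which affects only which clone is which. Of 13132 genes tested, 2101 or 16.0% changed between clones and parental line, 986 (7.51%) higher and 1115 (8.49%) lower in the clones, at a Benjamini-Hochberg adjusted p under 0.05 in limma on log2(value + 1). That count was 1015 without clone 12 and 981 without parental library 2. In 50.2% of the tested genes the clones and the parental libraries did not overlap.

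Among the transcription factors, Mef2c had no read in the clones, Mef2d was at a lower level in each clone, Mef2a overlapped between the groups and Mef2b was barely read. Mef2c had 0 reads in each of the 3 clones, against 265 and 3481 reads in parental libraries 1 and 2, which correspond to 411.7 and 531.4 normalized reads. Each clone lay far below both parental libraries. As a one-sided floor, a count of 0 allows up to 3 reads, which would be 3.69, 4.76 and 6.15 normalized reads in clones 12, 18 and 4. With the floor of 3 reads taken over the clones together, the parental mean of 471.6 ± 84.6 normalized reads (SD, n = 2) put Mef2c at least 303-fold lower in the clones, or 176-fold lower without clone 12. Intervals and floors of this kind cover counting error only.

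Mef2d, the family member with the most reads in every library, was at 1758, 1824 and 1557 normalized reads in clones 12, 18 and 4 and at 3045 and 3239 in the parental libraries. Every clone was below both parental libraries. Mef2d fell to 1713 ± 139 normalized reads in the clones (SD, n = 3), against 3142 ± 137 in the parental line (SD, n = 2). The log2 fold change was -0.88, with an SE of 0.104 and an adjusted p of 0.0020 (limma). With each library left out in turn the log2 fold change stayed between -0.92 and -0.81, with adjusted p between 0.00159 and 0.0173. Among all tested genes, 788 had a larger fall.

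Mef2a is a broadly expressed member and shares the MADS-box and MEF2 domains with the rest of the family. It was at 872.8, 797.3 and 1176 normalized reads in clones 12, 18 and 4 and at 1109 and 1258 in the parental libraries. Clones 12 and 18 were below both parental libraries, and clone 4 lay between them. The log2 fold change was -0.34 (SE 0.176), which missed the threshold (limma, adjusted p = 0.237). Without clone 4 the log2 fold change was -0.50 and passed (adjusted p = 0.0332, limma). It did not pass without clone 12 (-0.29, adjusted p = 0.448) or without clone 18 (-0.22, adjusted p = 0.452). The log2 fold change was -0.43 without parental library 1 and -0.25 without parental library 2.

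Mef2b, known from germinal centre B cells, had 1, 1 and 0 reads in clones 12, 18 and 4, against 0 and 14 in the parental libraries. The 14 reads of the deep parental library 2 amounted to 2.14 normalized reads. The pooled ratio of clones to parental line was 0.532, with a 95% counting interval of 0.0587 to 2.32. No difference was detectable at this depth, and the gene was below the minimum mean of 10 for testing.

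**Figure D1:**
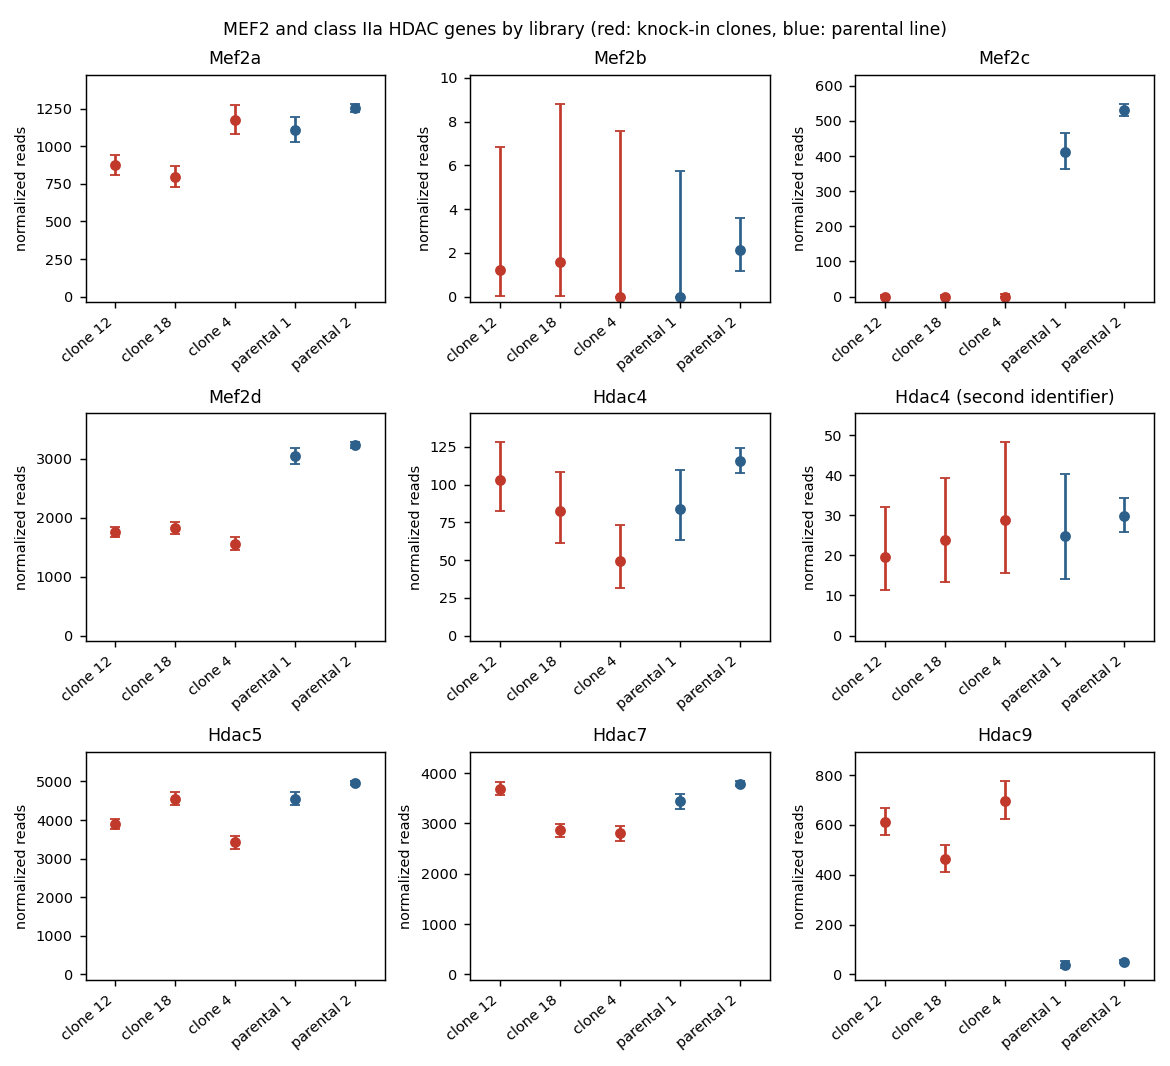
Normalized reads of each MEF2 and class IIa HDAC identifier (vertical axes, from 0, each with its own scale) in the 3 knock-in clones (red) and the 2 parental libraries (blue). Points are the libraries and bars are exact 95% Poisson intervals, which cover counting error only and are two-sided, so that at 0 reads they reach above the one-sided floor of 3 reads. Mef2c lies at 0 in the clones against 411.7 and 531.4 in the parental libraries, and Hdac9 lies at 462.9 to 697.5 in the clones against 37.3 and 50.1.

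The MEF2 reads were also summed over the 4 genes. The sum counts reads, to which longer transcripts add more, and gene lengths are not used here, so it does not compare molecules between genes. It was 2632, 2623 and 2733 normalized reads in clones 12, 18 and 4 and 4566 and 5030 in the parental libraries, so that the clones lay close together and below both parental libraries. The clone mean minus the parental mean was -2135. Mef2d accounted for 66.9% of that difference, Mef2c for 22.1% and Mef2a for 11.0%. Mef2c held 9.02% and 10.6% of the MEF2 reads in parental libraries 1 and 2, with exact 95% binomial intervals of 8.005% to 10.1% and 10.2% to 10.9%. Without Mef2c the sum was 2632, 2623 and 2733 in the clones and 4155 and 4498 in the parental libraries. The share of Mef2d in the MEF2 reads overlapped between the groups, at 66.8%, 69.5% and 57.0% in clones 12, 18 and 4 and 66.7% and 64.4% in the parental libraries.

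Among the class IIa deacetylases, Hdac9 was far higher in the clones, while Hdac4, Hdac5 and Hdac7 overlapped between the groups. Hdac9 is the member whose gene also gives a short form, MITR, that binds MEF2 but lacks the catalytic domain. It was at 613.1, 462.9 and 697.5 normalized reads in clones 12, 18 and 4 and at 37.3 and 50.1 in the parental libraries. The lowest clone was above both parental libraries, which rested on 24 and 328 reads. Hdac9 rose to 591.1 ± 119 normalized reads in the clones (SD, n = 3), against 43.7 ± 9.04 in the parental line (SD, n = 2). The log2 fold change was 3.72 (SE 0.226, adjusted p = 0.000165, limma), or 13.2-fold higher on the log2(value + 1) scale. With each library left out in turn it stayed between 3.52 and 3.93, and 101 of the 13132 tested genes had a larger rise. Each gene has 1 value, so MITR and the full-length form are not separated.

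Hdac5, a MEF2 repressor studied most in heart and muscle, was at 3896, 4557 and 3422 normalized reads in clones 12, 18 and 4 and at 4548 and 4952 in the parental libraries. Clone 18 lay between the parental libraries and the other clones were below both. Its log2 fold change was -0.27 (SE 0.127, adjusted p = 0.191, limma).

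Hdac7, which holds down MEF2 activity in thymocytes, B cell precursors and endothelium, was at 3691, 2860 and 2804 in clones 12, 18 and 4 and at 3437 and 3790 in the parental libraries. Clone 12 lay between the parental libraries and the others were below both. Its log2 fold change was -0.22 (SE 0.135, adjusted p = 0.302, limma).

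Hdac4, a repressor of MEF2 in growing cartilage, had few reads under its first identifier, ENSMUSG00000026313, at 103.4, 82.4 and 49.2 normalized reads in clones 12, 18 and 4 and at 83.9 and 115.9 in the parental libraries. Clone 4 was the lowest, on 24 reads, and the groups overlapped. The log2 fold change was -0.39 (SE 0.333, adjusted p = 0.457, limma), and it ranged from -0.62 to -0.09 as single libraries were left out. The second identifier under the symbol Hdac4, ENSMUSG00000073617, stayed between 19.7 and 28.7 normalized reads in the clones and was at 24.9 and 29.8 in the parental libraries (adjusted p = 0.741, limma). What that identifier covers, and whether the 2 share reads, is not given in the sources used here.

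**Figure D2:**
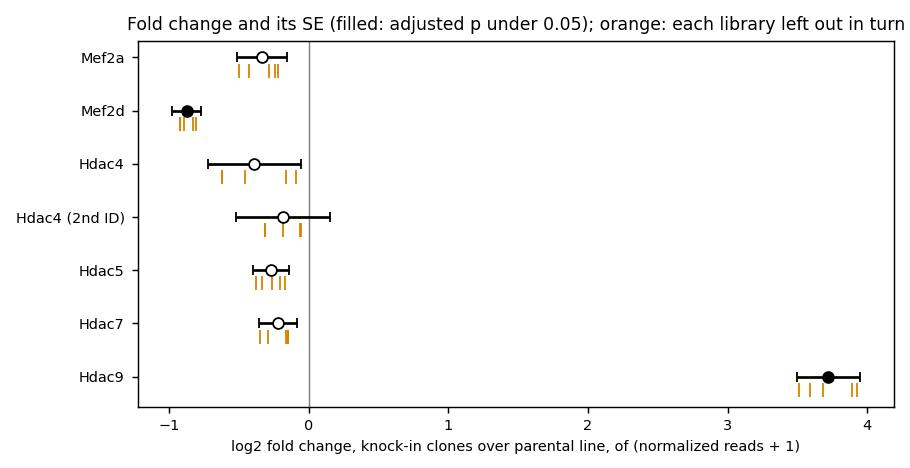
Log2 fold change of knock-in clones over the parental line on the log2(value + 1) scale (horizontal axis) for the 7 tested identifiers other than Mef2c. Circles with bars are the estimate and its SE, filled where the adjusted p was under 0.05 (Mef2d and Hdac9), and orange ticks are the estimates with each of the 5 libraries left out in turn. The sign of each was the same in all 5.

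Summed over the 4 genes, the class IIa reads overlapped between the groups, at 8323, 7986 and 7002 normalized reads in clones 12, 18 and 4 and at 8130 and 8938 in the parental libraries. Within that sum the share of Hdac9 did not overlap. It was 7.37%, 5.80% and 9.96% in clones 12, 18 and 4 and 0.459% and 0.560% in the parental libraries. Hdac5 and Hdac7 together remained the bulk of the reads, with Hdac5 alone at 46.8%, 57.1% and 48.9% in the clones and 55.9% and 55.4% in the parental libraries.

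**Figure D3:**
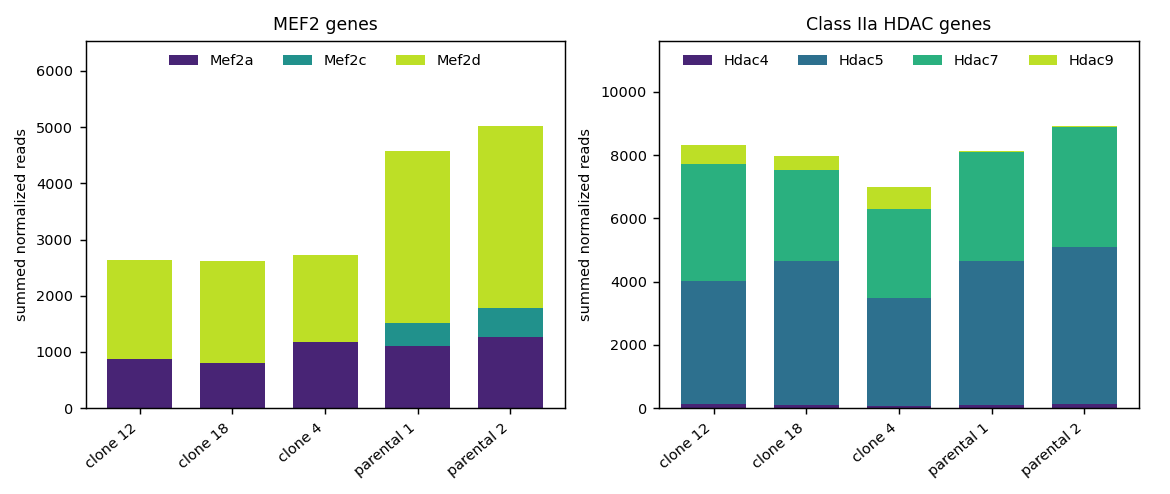
Stacked normalized reads of the MEF2 genes (left) and of the class IIa HDAC genes (right) in each library, knock-in clones first. Colours are genes, and Mef2b is left out because it never passed 2.14. The MEF2 stacks reach 2623 to 2733 in the clones against 4566 and 5030 in the parental libraries, and the HDAC stacks overlap.

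Of the 9 identifiers, 8 passed the minimum mean of 10 for testing. Mef2c passed through the parental libraries alone. Of the other 7, Hdac9 was higher, Mef2d was lower and 5 did not pass, beside 7.51% higher and 8.49% lower among all tested genes. The clones and parental libraries did not overlap in 2 of these 7, Hdac9 with the clones above and Mef2d with the clones below, against 50.2% of all tested genes (24.5% with the clones above and 25.8% below). Their median log2 fold change was -0.27, where that of all tested genes was 0.01.

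The clones also differed from one another. The highest clone was 1.17 times the lowest for Mef2d, 1.32 times for Hdac7, 1.33 times for Hdac5, 1.47 times for Mef2a, 1.51 times for Hdac9 and 2.10 times for the first Hdac4 identifier. Over all tested genes with a read in each clone the median of this ratio was 1.24. Clone 4 had the lowest Mef2d, Hdac5, Hdac7 and first-identifier Hdac4 and the highest Mef2a and Hdac9. Clone 18 had the lowest Mef2a and Hdac9 and the highest Mef2d and Hdac5. For Mef2a the exact 95% counting interval of clone 4, 1081 to 1276 normalized reads, lay above those of clone 12 (809.8 to 939.5) and clone 18 (729.2 to 870.1). Among the 8 tested identifiers the 2 parental libraries differed by 1.06 times (Mef2d) to 1.38 times (the first Hdac4 identifier), and library 2 was the higher for each.

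Mef2c was chosen for having no read in any clone, so the counts and profiles here only describe it. Of the 12689 genes with at least 10 normalized reads in both parental libraries, 26 had no read in any clone. Of the 9593 genes with at least 100 normalized reads in both parental libraries, 2 had no read in any clone, namely Mef2c and Grb10, an adaptor of growth factor receptors. Grb10 was also the nearest gene to Mef2c in profile, by Euclidean distance between log2(value + 1) values over the 5 libraries (0.098), with 0 reads in each clone and 433.5 and 508.4 normalized reads in the parental libraries. The next nearest were Gpr124, a receptor of endothelial Wnt signalling (distance 1.35), the membrane metalloprotease Mmp14 (1.92), Slc7a4 (2.62) and the cadherin Cdh23 (2.67). Gpr124 had 1 read in the clones together and 629.2 and 674.2 normalized reads in the parental libraries. Cdh23 had 3 reads in the clones together and 330.9 and 403.6 normalized reads in the parental libraries. In the other direction, 2 genes had no parental read and at least 100 normalized reads in every clone. The parental libraries together held 109285735 reads and the clones 29020663, so having no read is a stricter rule in the parental line.

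**Figure D4:**
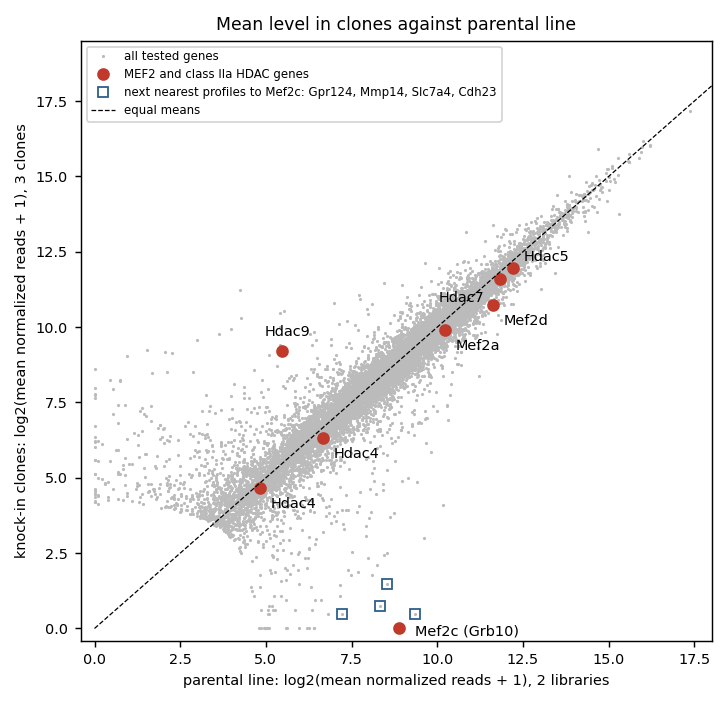
Mean level in the 3 knock-in clones (vertical axis) against that in the 2 parental libraries (horizontal axis), both as log2(mean normalized reads + 1), for the 13132 tested genes (grey), the tested MEF2 and class IIa HDAC identifiers (red) and the nearest profiles to Mef2c (blue squares). Grb10 lies under the Mef2c point. Hdac9 lies above the line of equal means, at 591.1 against 43.7 normalized reads, and Mef2c on the lower edge.

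Genes that regulate or partner these proteins were followed through 8 lists with 93 genes in all, of which 75 were tested. Of these, 4 were higher in the clones, 6 were lower and 65 did not pass, and the median log2 fold change was -0.05. The shares of all tested genes were 7.51% higher and 8.49% lower, and the counts of 4 and 6 among 75 are near those shares. Klf4, among the 6, and Nfatc2, among the 65, reached the minimum mean of 10 through 1 group alone, and without them 5 of 73 were lower and 64 did not pass. The number higher was 2 without clone 12 and 7 without parental library 1. The number lower was 3 without clone 12, 4 without parental library 1 and 2 without parental library 2.

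Several kinases can send class IIa deacetylases out of the nucleus. Of 20 tested kinases and phosphatases, 2 were higher, 2 were lower and 16 did not pass, beside 7.51% higher and 8.49% lower among all tested genes. Camk1, a calcium/calmodulin-dependent kinase, was at 682.0, 675.3 and 543.6 normalized reads in clones 12, 18 and 4 and at 2234 and 2397 in the parental libraries (log2 fold change -1.87, SE 0.134, adjusted p = 0.000307, limma). Its relative Camk1d showed the opposite, at 112.0, 139.5 and 199.0 in the clones and 10.88 and 12.98 in the parental libraries (log2 fold change 3.51, SE 0.296, adjusted p = 0.000592, limma). No clone overlapped the parental libraries for either gene.

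Prkd3, a protein kinase D that responds to diacylglycerol, was at 796.5, 710.1 and 824.7 in clones 12, 18 and 4 and at 1661 and 1681 in the parental libraries (log2 fold change -1.11, SE 0.113, adjusted p = 0.00114, limma). Camk2d, a calcium/calmodulin-dependent kinase of type II, was at 2574, 2574 and 2681 in the clones, against 1269 and 1450 in the parental libraries (log2 fold change 0.94, SE 0.0987, adjusted p = 0.00121, limma). All 4 kinases stayed past the threshold with each library left out in turn. The salt-inducible kinases Sik1, Sik2 and Sik3 and the MARK kinases tested, Mark2, Mark3 and Mark4, did not pass. Camk1g, Prkd1 and Mark1 had no read in any library.

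Of the 7 genes for 14-3-3 proteins, which hold phosphorylated class IIa deacetylases in the cytoplasm, Ywhaq was higher and 6 did not pass. Among all tested genes 7.51% were higher and 8.49% lower. Ywhaq averaged 11523 ± 307 normalized reads in the clones (SD, n = 3) and 8867 ± 461 in the parental line (SD, n = 2), with a log2 fold change of 0.38 and an adjusted p of 0.0142 (limma). It did not pass without clone 12 (adjusted p = 0.0552) or without parental library 1 (0.0718).

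Calcineurin, the calcium-dependent phosphatase, and the MAP kinases ERK5 and p38 activate MEF2. Of 13 tested genes of these branches, 1 was higher, 2 were lower and 10 did not pass. The shares of all tested genes were 7.51% higher and 8.49% lower. The calcineurin catalytic subunits moved apart. Ppp3ca averaged 1173 ± 63.1 normalized reads in the clones and 1638 ± 37.2 in the parental line (adjusted p = 0.0180, limma), and Ppp3cb 1868 ± 198 in the clones and 2691 ± 167 in the parental line (adjusted p = 0.020, limma). Ppp3cc averaged 84.4 ± 17.6 in the clones and 43.7 ± 1.85 in the parental line (adjusted p = 0.0416, limma), where each ± is an SD with n = 3 for clones and n = 2 for parental libraries.

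None of these 3 calcineurin calls held throughout as libraries were left out. Ppp3ca did not pass without clone 12 or without parental library 1 or 2 (adjusted p = 0.0735, 0.0687 and 0.0700, limma). Ppp3cb did not pass without clone 12, clone 18 or parental library 2 (0.0795, 0.0504 and 0.112), and Ppp3cc did not pass without any 1 of the 5 libraries (0.0669 to 0.168). Mapk7, which encodes ERK5, was at 837.1, 808.4 and 615.4 in clones 12, 18 and 4 and at 972.6 and 1201 in the parental libraries (adjusted p = 0.0743, limma).

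Of 11 corepressor genes, Ctbp2 was lower, 10 did not pass and none was higher, beside 7.51% higher and 8.49% lower among all tested genes. Ctbp2, a corepressor that class IIa deacetylases bind, averaged 1348 ± 126 in the clones (SD, n = 3) and 1900 ± 218 in the parental line (SD, n = 2), with adjusted p = 0.0329 (limma). It did not pass without clone 12, clone 18 or parental library 2 (0.119, 0.0866 and 0.177). Ncor1, a corepressor that links class IIa deacetylases to HDAC3, was at 21058 to 22433 in the clones, against 20928 and 22433 in the parental libraries.

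None of the 10 tested coactivators and partner factors of MEF2, such as Ep300 and Crebbp, passed, and none of the 6 tested deacetylases of the other zinc-dependent classes did. Hdac3, the enzyme of the shared corepressor complex and a member of 2 of the lists, was at 1198, 1343 and 1268 normalized reads in clones 12, 18 and 4 and at 1364 and 1461 in the parental libraries (adjusted p = 0.351, limma). Srf, the other MADS-box factor, and its coactivators gave no call among 5 tested genes.

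Of the genes described elsewhere as MEF2 targets, mostly in muscle, endothelium and neurons, 4 of 15 were read enough to test. Klf4, a Krüppel-like factor that MEF2 drives downstream of ERK5 in endothelium, had 0, 1 and 0 reads in clones 12, 18 and 4 and 43.5 and 31.6 normalized reads in the parental libraries. By pooled reads the clones were lower, at a parental-to-clone ratio of 63.1 (95% interval from counting error, 11.2 to 2501). Klf4 reached the minimum mean through the parental libraries alone, so its adjusted p of 0.0101 (limma) is given without weight, and it did not pass without parental library 1 or 2 (0.140 and 0.116). Klf2, of the same list, went the other way on few reads and was below the minimum mean. It was at 3.69, 3.17 and 6.15 normalized reads in clones 12, 18 and 4 and at 0 and 1.68 in the parental libraries. Jun, Nr4a1 and Il2 did not pass (adjusted p = 0.997, 0.730 and 0.679, limma). Jun was at 80.0 to 128.4 in the clones, against 94.8 and 100.1 in the parental libraries. Nr4a1 was at 28.5 to 35.7 in the clones, against 23.3 and 31.4 in the parental libraries. Il2 was at 8.21 to 24.6 in the clones, against 18.6 and 17.3 in the parental libraries.

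**Figure D5:**
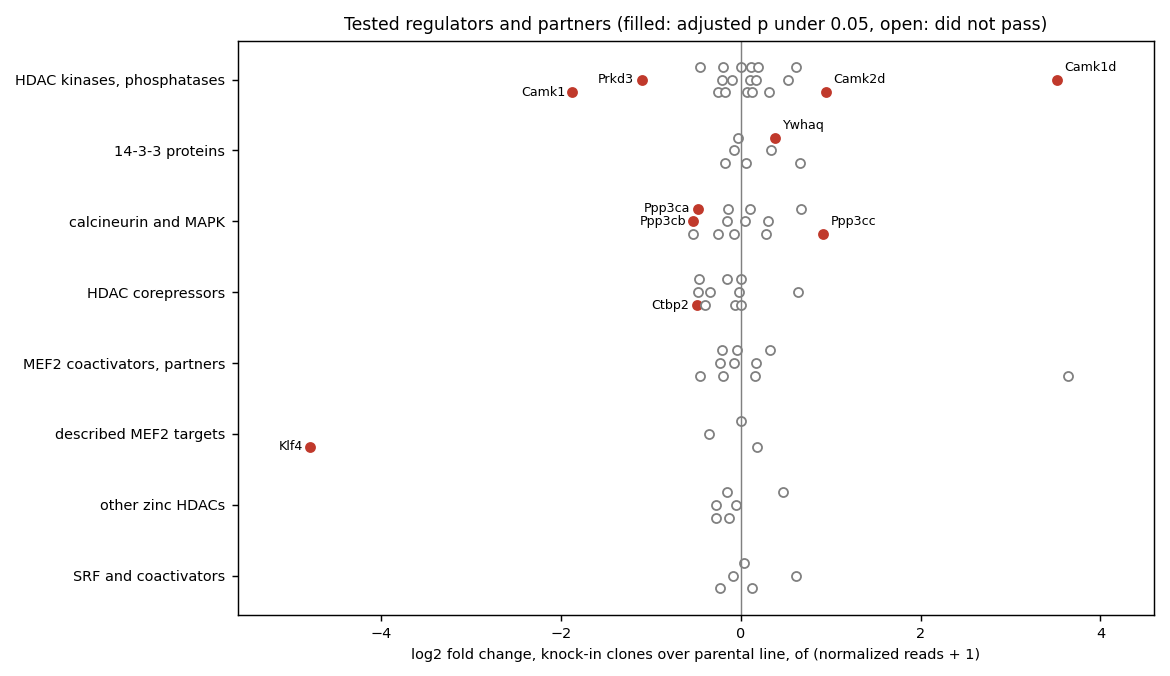
Log2 fold change of knock-in clones over the parental line on the log2(value + 1) scale (horizontal axis) for every tested gene of the 8 lists (rows, with points spread vertically only to separate them). Filled points passed an adjusted p of 0.05 and are named. The 10 called genes split into 4 to the right of 0 and 6 to the left, of which Klf4 reached the minimum mean through the parental libraries alone. Hdac3 appears in 2 rows, and the open point at the far right is Nfatc2, which did not pass.

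Marker genes of several cell types moved in the same comparison as Mef2c, Mef2d and Hdac9. Counts of called markers stand beside 7.51% higher and 8.49% lower among all tested genes. Since the RNA was extracted in bulk, fewer cells of a type and less RNA per cell cannot be told apart. Of 6 B cell markers, 4 were tested and 2 (Cd79b and Igll1) were lower in the clones, and the summed level of the list was 1613 to 2248 normalized reads in the clones and 3682 to 3967 in the parental libraries. Cd79b was at 1.23, 1.59 and 0 in clones 12, 18 and 4 and at 80.8 and 90.2 in the parental libraries, through which alone it reached the minimum mean, and without it 1 of 3 was lower. The surrogate light chain gene Igll1 was at 1571 to 2228 in the clones, against 3835 and 3502 in the parental libraries. Ms4a1 was at 0 in all libraries and Pax5 at 2.05 or less. Cd79a and Vpreb1 had reads in every library and did not pass. Cd79a was at 8.62 to 16.4 in the clones, against 17.1 and 17.6 in the parental libraries. Vpreb1 was at 2.05 to 31.7 in the clones, against 34.2 and 71.8 in the parental libraries.

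The marker counts that follow also stand beside 7.51% higher and 8.49% lower among all tested genes. Of 9 mast cell and basophil markers, 6 were tested and 4 were higher. Tpsb2 and Il1rl1 among them reached the minimum mean through the clones alone, and without them 2 of 4 tested markers were higher (Ms4a2 and Mcpt8). The summed level was 5441 to 8008 in the clones and 3490 and 1260 in parental libraries 1 and 2. Fcer1a was at 2.46, 11.1 and 0 in clones 12, 18 and 4 and at 0 in both parental libraries. Fcer1a, Tpsab1 and Cma1 were below the minimum mean, and Hdc did not pass (adjusted p = 0.139, limma). Much of the sum was Cpa3, which did not pass (adjusted p = 0.225, limma). Cpa3 was at 2748 to 4388 in the clones and at 2450 and 386.2 in parental libraries 1 and 2. Without Cpa3 the sums were 2694 to 4870 in the clones and 1039 and 873.7 in the parental libraries. Of 5 megakaryocyte markers, 3 were tested and 1 was higher, with a sum of 2015 to 3069 in the clones and 319.4 and 386.9 in the parental libraries that was mostly Itga2b. Of 8 monocyte and dendritic markers, 7 were tested, 2 were higher (Emr1 and Itgax, the second of which reached the minimum mean through the clones alone) and 1 was lower (Flt3). Their sums were 4671 to 5385 in the clones and 6041 and 6238 in the parental libraries. Without Flt3 the order turned, to 915.9 to 1317 in the clones and 595.1 and 716.6 in the parental libraries. In the clones much of that remainder was Emr1, at 531.8 to 937.5 normalized reads, against 153.8 and 190.5 in the parental libraries. Csf1r, Irf8, Cd68 and Cd14 overlapped between the groups and did not pass. The part of these shifts in the values of Mef2c, Mef2d and Hdac9 was not tested. Of the 9 progenitor markers, 2 were higher (Ptprc and Myb) and 1 was lower (Elane), with sums of 70858 to 75347 in the clones and 84865 to 94797 in the parental libraries. Mpo, which did not pass (adjusted p = 0.0629, limma), was at 7872 to 20009 in the clones, against 42873 and 38610 in the parental libraries, and without it the sums were 53750 to 67475 in the clones and 51924 and 46255 in the parental libraries. MEF2 factors are also prominent in muscle and endothelium. The muscle genes Myod1 and Des and the endothelial genes Cdh5 and Tek were at 0 in all libraries. Myog, Ckm and Kdr were at 3.17 normalized reads or less. The muscle gene Acta1 had reads in every library, from 9.32 (parental library 1) to 17.6 (parental library 2), and did not pass. Of 5 muscle and 4 endothelial markers 1 each was tested, and only Pecam1, which blood cells also express, was higher, at 7452 to 9160 in the clones, against 3302 and 3493 in the parental libraries.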

How the data were processed

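Libraries were made from RNeasy-extracted total RNA with NEBNext Ultra II, per the labels' protocols. STAR 2.6.1, RSEM, DESeq2 and the build mm9 are named in the submitters' processing notes, without the step each served. The sources used here do not state strand use or the annotation. The authors deposited a normalized signal per gene, reads divided by 1 size factor per library, as the values and labels show. Within a tolerance of 0.01, 100% of values above 0 were whole multiples of the value of 1 read. Genes with a mean of at least 10 were tested with limma 3.58.1 (R 4.3.3, trend and robust moderation) on log2(value + 1), which understates changes of low genes. edgeR 4.0.16 and DESeq2 1.42.0 were run on the recovered reads as alternatives. They called 2265 of 12903 and 2681 of 20236 genes that had a p-value. Of the list genes, edgeR called 4 higher and 7 lower of 75, and DESeq2 6 higher and 9 lower of 85. The genes of the family and the lists were chosen with earlier results of these data known. Named list genes were up to 4 called genes per list with the smallest p, and the 5 nearest profiles to Mef2c. Others named without a call were chosen after their values were seen. Sfpi1 was read as Spi1. A few genes of the planned lists are not reported here.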

Additional observations from a re-analysis of the deposited data

How the results depend on the processing

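Mef2d and Hdac9 kept their direction and passed under all 8 alternative settings (pseudocounts of 0.5 and 5, no filter, a minimum mean of 50, library totals as scaling, edgeR, DESeq2, and limma without trend and robust moderation) and without each library. The log2 fold change ranged from -0.92 to -0.81 for Mef2d and from 3.52 to 3.93 for Hdac9. Mef2a, Hdac4, Hdac5 and Hdac7 did not pass under any of them, except Mef2a without clone 4, and the second Hdac4 identifier and Klf4 were below the minimum mean of 50. Library totals moved the median of all tested genes by 0.01 (log2). Limma without trend and robust moderation called 1271 genes, and 3 list genes lower. Ywhaq, Ppp3ca, Ppp3cb, Ppp3cc and Ctbp2 did not pass there (adjusted p = 0.0932, 0.0601, 0.0776, 0.0507 and 0.0957, limma), nor did Ppp3cb, Ppp3cc and Ctbp2 with no filter (0.0539, 0.0756 and 0.0736), and the cause was not tested. With single libraries left out, which gave fewer samples, genes called numbered 981 to 2117, list genes called higher 2 to 7 and lower 2 to 6, and the Mef2c bound was 175.8 to 342. Where 1 parental library was left, it was assumed to vary like the clones. The higher share of calls was 46.9% in all libraries, 68.5% without parental library 1 and 59.6% without parental library 2. No call named here reversed. No paired analysis was possible because clone numbers and parental replicate numbers share no value. Mef2b, Klf4 and the first Hdac4 identifier rest on few reads in some libraries, as do Camk1d and Ppp3cc in parental library 1 (7 and 29 reads).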

Other observations

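A few list genes differed widely between the clones, and they are given as values chosen after they were seen. Nfatc2, a calcineurin-responsive factor that partners MEF2, was at 18.5, 120.5 and 0 normalized reads in clones 12, 18 and 4 and at 0 and 0.153 in the parental libraries (adjusted p = 0.245, limma). Camk2a was at 76.3, 9.51 and 45.1 in clones 12, 18 and 4 and at 28.0 and 71.3 in the parental libraries. Irf8, a monocyte and dendritic cell factor, was at 152.7, 180.7 and 39.0 in clones 12, 18 and 4 and at 155.4 and 207.8 in the parental libraries. Parental library 2 was below library 1 for some regulators, with Ppp2ca at 561.4 against 1171 and Ctbp1 at 346.6 against 722.5 normalized reads. It was also far below library 1 for the markers Cpa3, at 386.2 against 2450, and Ctsg, at 260.3 against 1866.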
